A study of Mus musculus with 4 samples.

Results

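Collagen chains are the protein subunits of the collagens, and 42 genes whose symbol follows the pattern of a collagen chain were read among 19505 genes with a probe set. Within the platform annotation the members were taken by symbol, and each had 1 probe set. They comprised 11 fibrillar chains, 6 basement membrane chains of type IV, 6 chains of type VI, 8 fibril-associated chains (FACITs), 4 transmembrane chains, 2 multiplexins, 3 short-chain network chains and 2 others. Col7a1 and Col12a1 were not analysed here. The cells were muscle progenitors positive for CD29 and ITGA7, sorted by flow cytometry from collagenase-digested muscle of C57Bl/6 mice. The aged group held 2 arrays from mice of 2 years and the young group 2 arrays from mice of 5 weeks; no allele or treatment was given for either group. Whether an array stands for 1 animal or a pool is not stated, nor whether replicate arrays are separate animals; each p-value therefore covers only the spread among these arrays, which may be technical.

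A collagen molecule is a triple helix of 3 chains, each a long repeat in which glycine recurs at a fixed spacing. Chains are modified in the endoplasmic reticulum, wound together and secreted, after which fibrillar collagens are trimmed and cross-linked into fibrils. In skeletal muscle, fibrils of types I and III fill the connective tissue around fibres and tendons, while types IV and VI build and anchor the basement membrane under which satellite cells, the stem cells of muscle, reside. Collagens V and VI are known parts of the satellite cell niche.

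Levels below are the log2 values that the authors deposited, and differences are aged minus young in the same log2 units. Their range, 2.08 to 19.4, is wider than a plain array scan usually gives, so differences are not converted to folds. A level is a property of its probe set, so levels are compared between arrays and not between genes. The exon control probe sets stood above the intron control probe sets with a separation (area under the curve) of 0.792 and 0.819 for aged arrays, against 0.849 and 0.823 for young arrays. This sign of RNA and labelling quality was lower in both aged arrays, though aged replicate 2 and young replicate 2 were nearly level. The median of the 5222 intron controls, used here as a mark of background, was 6.76 and 6.68 for aged arrays, against 6.25 and 6.62 for young arrays. Of the 42 collagen genes, 22 were above this mark in every array and 13 below it in every array. All 11 satellite cell markers were above it in every array, among them Pax7 (9.99 and 11.04 in aged cells, 10.91 and 9.89 in young cells). All 10 measured markers of fibro-adipogenic progenitors, mesenchymal cells between the fibres, were above it in every array too. Pdgfra and Ly6a, also listed as markers of these cells, were not analysed here.

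The collagen genes with the smallest p-values had lower readings in the aged cells, and 5 of these 10 genes were fibrillar chains. At an unadjusted limma p under 0.05, 10 of 42 collagen genes were lower in aged cells (23.8%) and 0 were higher. Over all 19572 probe sets the same condition held for 7.35%, with 3.99% in the lower and 3.36% in the higher direction. The 10 genes were Col1a1, Col1a2, Col3a1, Col5a1, Col5a2, Col4a3, Col6a1, Col6a2, Col14a1 and Col26a1, and 9 of them were lower by at least 1 log2 unit, as were 2.87% of all probe sets at that p. No collagen gene passed the adjusted threshold in limma, where the smallest adjusted p was 0.386 for a collagen gene and 0.343 for any probe set, so none is called changed. The count of 10 was 8 to 10 with each array left out in turn and 4 when the exon against intron separation was a covariate, a fit with 1 residual degree of freedom in which 2.39% of all probe sets were lower. Both aged arrays lay below both young arrays for 18 collagen genes (42.9%), against 18.4% of all probe sets. They lay above both young arrays for 4 (9.52%), against 18.2%. Differences were negative for 25 of the 42 genes (59.5%), against 50.2% of all probe sets, with a median of -0.16 over the 42 genes and of -0.0013 over all probe sets.

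**Figure D1:**
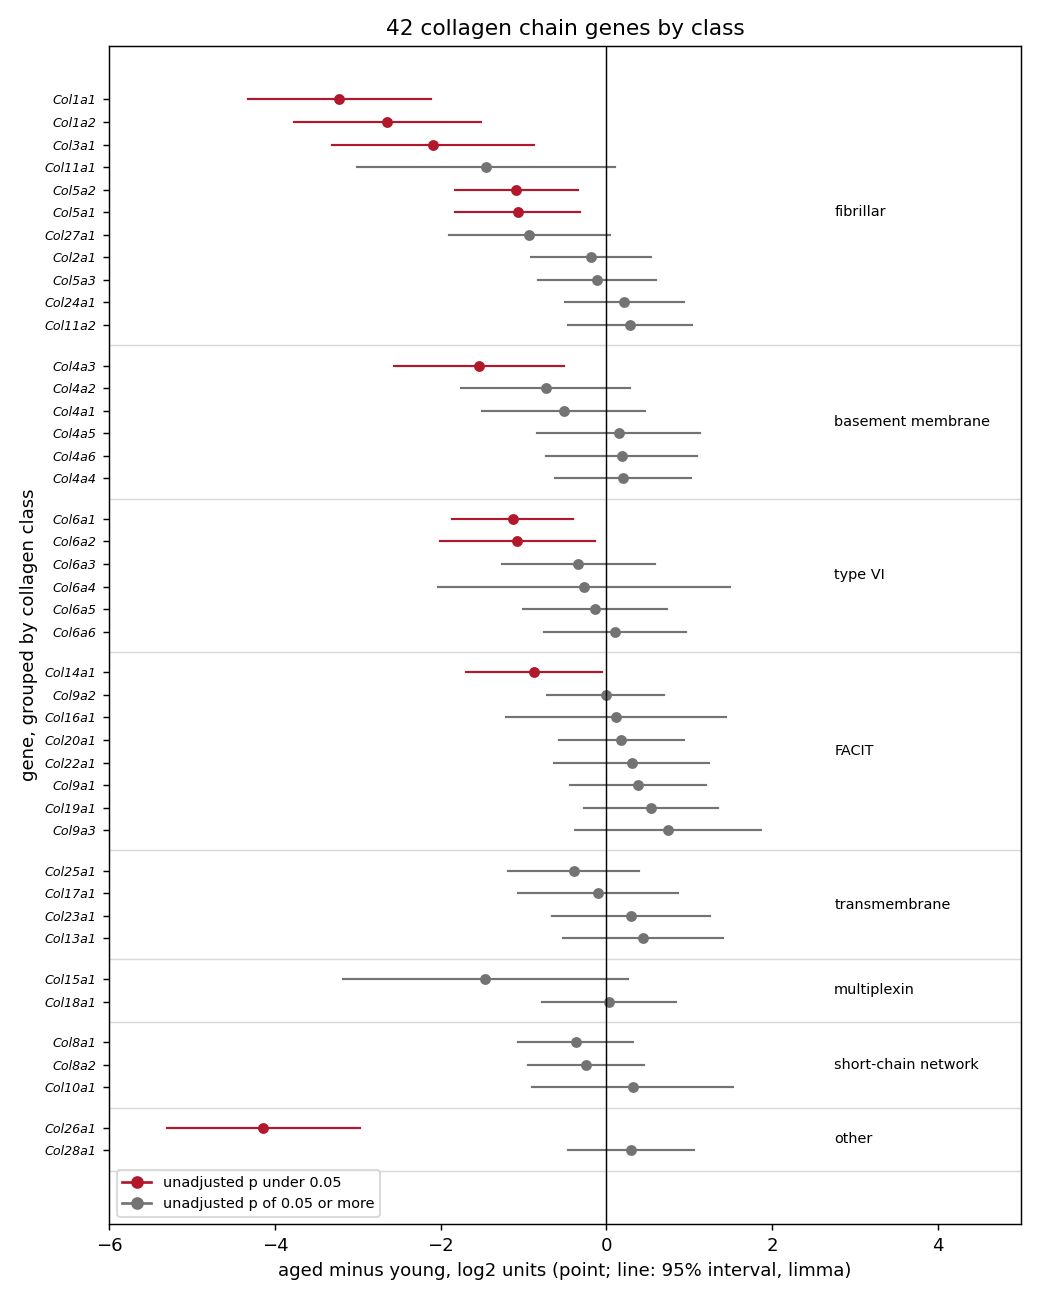
Difference between aged and young arrays for each of the 42 collagen chain genes, in log2 units with its 95% interval from limma, grouped by class; red marks an unadjusted p under 0.05. The red points are all left of 0, from -4.14 for Col26a1 to -0.87 for Col14a1, and 5 of the 10 are fibrillar chains.

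The fibrillar class had the most genes at an unadjusted p under 0.05, 5 of 11, and 9 of its 11 differences were negative. The class median was -1.07. Over all probe sets 3.99% were lower at that p and 50.2% of differences were negative. Type I collagen, the main protein of tendon and connective tissue fibrils, is built from the products of Col1a1 and Col1a2. Col1a1 was read at 11.08 and 11.27 in the aged and at 14.99 and 13.82 in the young arrays. The aged arrays were close to each other and far below both young arrays. The difference was -3.22 ± 0.45 (SE; limma adjusted p of 0.386), at rank 3 from the lowest of the 19572 probe sets. Col1a2, the partner chain, was read at 9.01 and 8.41 in aged and at 11.89 and 10.81 in young arrays. Again the groups did not overlap, and young replicate 1 was the highest array. Its difference was -2.65 ± 0.46 (SE; limma adjusted p of 0.424). The 95% intervals, -4.33 to -2.12 for Col1a1 and -3.78 to -1.51 for Col1a2, overlapped.

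Col3a1 encodes the single chain of type III collagen, which forms thin fibrils together with type I. It was read at 11.05 and 11.43 in aged and at 14.00 and 12.67 in young arrays, with no overlap. The young arrays were 1.33 apart, more than the 0.39 between the aged arrays. The difference was -2.10 ± 0.49 (SE; limma adjusted p of 0.478), and -1.43 without young replicate 1.

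Type V collagen starts the assembly of type I fibrils and limits their width. Its alpha 1 chain gene Col5a1 was read at 10.64 and 10.84 in aged and at 12.001 and 11.63 in young arrays. Its alpha 2 chain gene Col5a2 was read at 7.53 and 7.87 in aged and at 8.70 and 8.87 in young arrays. Neither gene overlapped between the groups, and their differences were nearly equal at -1.07 ± 0.31 and -1.09 ± 0.30 (SE; limma adjusted p of 0.548 and 0.537). The third chain gene, Col5a3, was read at 6.62 and 6.75 in aged and at 6.90 and 6.71 in young arrays. Its groups overlapped and its difference was -0.12 ± 0.29 (SE), with a 95% interval of -0.83 to 0.60.

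The other fibrillar genes did not reach an unadjusted p of 0.05. Col11a1 encodes a minor fibrillar chain best known from cartilage. It was read at 7.24 and 5.65 (below the intron mark) in aged and at 8.45 and 7.36 in young arrays. The groups were barely apart, and its difference of -1.45 ± 0.63 (SE) shrank to -0.66 without aged replicate 2 and grew to -2.25 without aged replicate 1. Col27a1, another chain of cartilage, was read at 5.69 and 5.26 in aged and at 6.82 and 5.99 in young arrays, a difference of -0.93 ± 0.39 (SE). Only its young replicate 1 reading stood above the intron mark. Col2a1, the main chain of cartilage, was read between 4.23 and 4.599, below the mark in every array, and differed by -0.19. Col11a2 and Col24a1 were the 2 fibrillar genes with positive differences, 0.29 and 0.22. Col11a2 was read at 7.68 and 7.33 in aged and at 7.14 and 7.30 in young arrays.

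**Figure D2:**
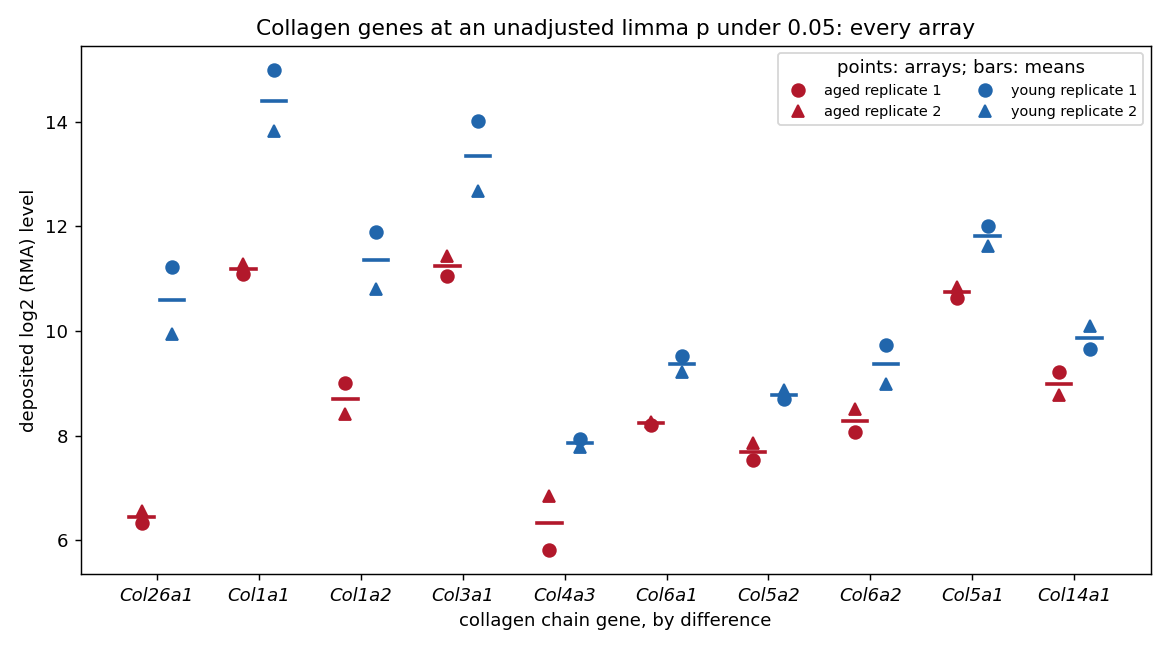
Deposited log2 level of the 10 collagen genes at an unadjusted p under 0.05, with 1 point per array (red aged, blue young) and a bar at each group mean. For every gene both red points lie below both blue points, and the blue points of Col1a1, Col1a2, Col3a1 and Col26a1 are over 1 log2 unit apart.

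In the basement membrane class 1 of 6 genes was at an unadjusted p under 0.05. Differences were split between 3 negative and 3 positive, with a median of -0.18. Over all probe sets 3.99% were lower at that p, and a count of 1 gene is not read as a result about the class. Type IV collagen forms the sheet-like network of basement membranes, in most tissues from the products of Col4a1 and Col4a2. Col4a1 was read at 8.35 and 8.82 in aged and at 9.52 and 8.68 in young arrays. The groups overlapped, and the difference of -0.52 ± 0.40 (SE) was -0.10 without young replicate 1. Col4a2 was read at 8.32 and 7.53 in aged and at 8.98 and 8.32 in young arrays and differed by -0.73 ± 0.41 (SE; limma adjusted p of 0.772). Aged replicate 1 and young replicate 2 were nearly level there.

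Col4a3 encodes a chain best known from the kidney filter. It was read at 5.81 and 6.84 in aged and at 7.94 and 7.79 in young arrays, without overlap. The difference of -1.54 ± 0.41 (SE; limma adjusted p of 0.522) was -1.02 without aged replicate 1, whose reading lay below the intron mark. Its usual partner Col4a4 was read at 6.65 and 6.04 in aged and at 6.18 and 6.11 in young arrays, below the mark in every array, and differed by 0.20 ± 0.33 (SE). Col4a5 and Col4a6 were also below the mark throughout and differed by 0.15 and 0.18.

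In the type VI class 2 of 6 genes were at an unadjusted p under 0.05, and 5 of 6 differences were negative. The class median was -0.31. Over all probe sets 3.99% were lower at that p and 50.2% of differences were negative. A count of 2 genes is not read as a result about the class. Type VI collagen forms beaded microfibrils next to the muscle basement membrane, and mutations of its main chains cause congenital muscle disease. Col6a1 was read at 8.21 and 8.27 in aged and at 9.53 and 9.21 in young arrays. The aged arrays were almost equal and clearly below the young ones and differed from them by -1.13 ± 0.30 (SE; limma adjusted p of 0.514). Col6a2 was read at 8.07 and 8.51 in aged and at 9.74 and 8.99 in young arrays. It did not overlap either, and its difference of -1.07 ± 0.38 (SE; limma adjusted p of 0.617) was -0.70 without young replicate 1.

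Col6a3, which encodes the third and largest chain of the common type VI molecule, was read at 9.64 and 9.55 in aged and at 10.35 and 9.51 in young arrays. Here young replicate 2 was level with the aged arrays, and the difference was -0.34 ± 0.37 (SE) with a 95% interval of -1.26 to 0.58. That interval contains the differences of Col6a1 and Col6a2, so a smaller difference for the third chain was not shown. Of the genes for chains that can replace it, Col6a6 was read at 8.57 and 8.38 in aged and at 8.70 and 8.04 in young arrays and differed by 0.10. Col6a4 and Col6a5 differed by -0.27 and -0.14, and each lay below the intron mark in both aged arrays.

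In the FACIT class 6 of 8 differences were positive, with a median of 0.25, and the 1 gene at an unadjusted p under 0.05 was lower. Over all probe sets 3.99% were lower at that p, and a count of 1 gene is not read as a result about the class. The class median was 0.037 without aged replicate 1 and -0.052 with the separation covariate. Of the 8 genes, 4 were below the intron mark in every array. FACITs do not form fibrils but coat them. Col14a1, a chain that binds to type I fibrils in tendon and skin, was read at 9.21 and 8.78 in aged and at 9.65 and 10.09 in young arrays. The groups lay 0.44 apart, and the difference was -0.87 ± 0.33 (SE; limma adjusted p of 0.659). Its unadjusted p was not under 0.05 in 7 of 13 alternatives, namely a second quantile normalization, the brighter probe sets, the trended prior, the replicate block, every row tested, and the fits without aged or young replicate 2. Col9a3, a chain of a cartilage collagen, had the largest positive difference among the 42 genes, 0.75 ± 0.46 (SE; limma adjusted p of 0.789). It was read at 7.98 and 6.93 in aged and at 6.39 and 7.02 in young arrays, and the groups overlapped. Without aged replicate 2 its difference was 1.27, and it was then the 1 collagen gene higher at an unadjusted p under 0.05. Col19a1, known from developing muscle, differed by 0.53 and Col22a1, a chain of the muscle to tendon junction, by 0.31. Col9a1 and Col9a2 differed by 0.38 and -0.0093, and these 4 genes were the ones below the mark. Col20a1 and Col16a1 differed by 0.18 and 0.12.

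None of the transmembrane, multiplexin or short-chain genes was at an unadjusted p under 0.05. The transmembrane class had 2 negative and 2 positive differences and a median of 0.10, which turned negative with the separation covariate (-0.31) and in the fits that left out aged replicate 1 (-0.11) or young replicate 2 (-0.089). The class includes chains with a role in the nerve contact of muscle. Col13a1, a collagen of the neuromuscular synapse, was read at 7.67 and 7.16 in aged and at 6.58 and 7.37 in young arrays and differed by 0.44 ± 0.39 (SE). Col25a1, which motor axons need to enter muscle, was read at 5.32 and 4.87 in aged and at 5.63 and 5.36 in young arrays, all below the intron mark, and differed by -0.40 ± 0.32 (SE). Col17a1 and Col23a1 differed by -0.10 and 0.30.

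The multiplexins lie in the zone between basement membrane and connective tissue. Col15a1, whose loss causes a mild muscle disease in mice, was read at 9.10 and 11.27 in aged and at 11.58 and 11.71 in young arrays. A single array, aged replicate 1, lay far below the rest. The difference of -1.46 ± 0.70 (SE; limma adjusted p of 0.725) was -0.37 without that array and -2.55 without aged replicate 2. Col18a1, the source of endostatin, was read at 9.01 and 8.99 in aged and at 9.26 and 8.68 in young arrays and differed by 0.033 ± 0.33 (SE); the sign turned with median centring (-0.0023).

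Among short-chain genes, Col8a1, a collagen of vessel walls and the cornea, was read at 3.997 and 4.03 in aged and at 4.40 and 4.37 in young arrays. Col8a2, its partner, was read at 5.01 and 5.08 in aged and at 5.33 and 5.23 in young arrays. Both sets of aged readings lay just below the young ones, with differences of -0.37 ± 0.28 and -0.24 ± 0.28 (SE), but all 8 readings were below the intron mark. Col10a1, a marker of hypertrophic cartilage, was read at 7.12 and 6.22 in aged and at 5.83 and 6.88 in young arrays, and its difference of 0.32 ± 0.49 (SE) turned to -0.14 without aged replicate 1 and -0.21 without young replicate 1.

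Col26a1, a secreted collagen-like protein with an EMI domain first described in testis and ovary, had the lowest difference of all 19572 probe sets. It was read at 6.33 and 6.57 in aged and at 11.23 and 9.95 in young arrays. Both aged readings were below the intron mark, while both young readings were far above it. The difference was -4.14 ± 0.47 (SE; limma adjusted p of 0.386), and its size is uncertain because the aged readings may be background. Col28a1, which is known from nerve sheath cells, was read at 8.75 and 8.32 in aged and at 8.24 and 8.23 in young arrays and differed by 0.30 ± 0.31 (SE).

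With each array left out in turn, 5 of the 10 lower genes (Col1a1, Col1a2, Col3a1, Col4a3 and Col26a1) were at an unadjusted p under 0.05 in each of the 4 fits. Their sign could not turn in these fits, since the groups do not overlap for any of the 10 genes. Col5a1 and Col6a2 lost that p without aged replicate 1 or young replicate 1, Col5a2 without aged replicate 1 or young replicate 2, and Col6a1 without young replicate 1. Without overlap, the highest array of each gene had to be a young one and the lowest an aged one. Young replicate 1 was the highest array for 8 of the 10 genes, and aged replicate 1 the lowest for 8. The same young array had the highest and the same aged array the lowest exon against intron separation; the part of this in the collagen differences was not tested. With the separation as a covariate the differences were -2.44 for Col1a1, -2.38 for Col1a2, -3.27 for Col26a1 and -1.38 for Col14a1, the 4 genes then at an unadjusted p under 0.05. They were -1.10 for Col3a1 and -0.38 for Col6a2. Of the other 32 genes, 14 turned sign in at least 1 of the 4 leave-one-out fits.

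**Figure D3:**
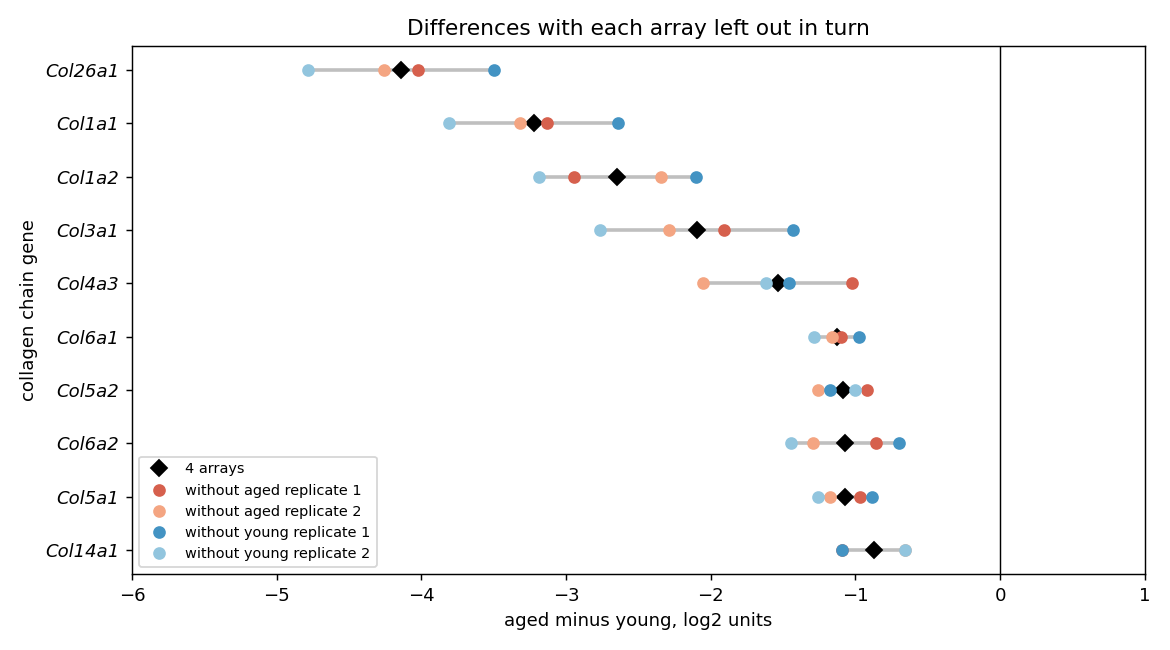
Differences between aged and young arrays, in log2 units, for the 10 collagen genes at an unadjusted p under 0.05: the diamond uses all 4 arrays and the circles leave out 1 array each. Every circle is left of 0, as it must be where the groups do not overlap, and for Col1a1, Col1a2, Col3a1 and Col26a1 the smallest difference is the one without young replicate 1.

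Some collagen genes lie next to each other on a chromosome. In RefSeq's GRCm38.p6 annotation, 8 pairs of measured collagen genes were direct neighbours among protein-coding genes, and 6 pairs had differences of the same sign. In 2 pairs both genes were at an unadjusted p under 0.05 and lower, Col3a1 with Col5a2 (-2.10 and -1.09) and Col6a1 with Col6a2 (-1.13 and -1.07). The pairs of unlike sign were Col4a3 with Col4a4 (-1.54 and 0.20), which start head to head, and Col6a5 with Col6a6 (-0.14 and 0.10). The values of Col4a4, Col6a5 and Col6a6 were smaller than their SEs (0.33, 0.35 and 0.35), so opposite directions were not shown. Among the pairs of like sign, Col4a5 with Col4a6 and Col6a4 with Col6a5 also had differences smaller than their SEs, so a shared direction was not shown for them.

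The sequence before the start was set beside these values for the members that were lower together. Promoters were given in RefSeq's GRCm38.p6 table for 34 of the 42 genes and for 5 of the 10 lower ones, Col1a2, Col3a1, Col5a1, Col6a1 and Col6a2. The 4 shown are the 250 bases before the outermost RefSeq start of a type I, a type III and both lower type VI genes, 5′ to 3′ on the gene's strand, with the motif CCTCCC or its reverse complement GGGAGG in capitals. Col1a2 lies at chr6:4505368-4505617 (plus strand), Col3a1 at chr1:45311288-45311537 (plus strand), Col6a1 at chr10:76726045-76726294 (minus strand) and Col6a2 at chr10:76623631-76623880 (minus strand).
Col1a2: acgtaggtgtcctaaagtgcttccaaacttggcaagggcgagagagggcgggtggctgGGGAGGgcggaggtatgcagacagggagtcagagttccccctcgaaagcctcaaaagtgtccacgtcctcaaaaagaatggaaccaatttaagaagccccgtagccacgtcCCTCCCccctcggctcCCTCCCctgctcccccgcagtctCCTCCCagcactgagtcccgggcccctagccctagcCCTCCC
Col3a1: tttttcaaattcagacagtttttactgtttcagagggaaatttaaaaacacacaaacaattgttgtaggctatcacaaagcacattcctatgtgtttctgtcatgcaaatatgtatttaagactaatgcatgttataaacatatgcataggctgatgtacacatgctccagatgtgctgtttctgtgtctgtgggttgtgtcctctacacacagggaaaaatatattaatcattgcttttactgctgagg
Col6a1: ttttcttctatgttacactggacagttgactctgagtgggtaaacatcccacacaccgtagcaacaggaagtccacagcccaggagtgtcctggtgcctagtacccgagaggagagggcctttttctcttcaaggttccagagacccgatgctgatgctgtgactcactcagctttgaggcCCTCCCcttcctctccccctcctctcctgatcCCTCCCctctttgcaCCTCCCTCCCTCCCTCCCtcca
Col6a2: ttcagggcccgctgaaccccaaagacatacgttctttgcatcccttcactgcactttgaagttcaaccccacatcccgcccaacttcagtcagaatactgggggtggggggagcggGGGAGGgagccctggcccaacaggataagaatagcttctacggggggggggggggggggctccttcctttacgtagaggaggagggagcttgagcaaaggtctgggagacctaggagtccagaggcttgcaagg
These promoters were unlike in this motif, which was chosen after the sequences were read. Counted on both strands with overlaps, it occurred 5 times before Col1a2, 6 times before Col6a1 and 1 time before Col6a2. It was absent before Col3a1, whose window instead held 1 TATAAA. Before Col5a1, whose window is not shown, it occurred 3 times. At least 1 CCTCCC was found in 4 of the 5 lower genes (80.0%), in 19 of the 29 other collagen genes (65.5%) and in 37.1% of the 27025 genes in the table. GGGCGG was found in 58.8% of collagen and 33.0% of all promoters, CCAAT in 32.4% and 34.5%, and TATAAA in 14.7% and 13.0%. A match is a description of letters, not a binding site.

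Of 20 measured genes of collagen biosynthesis, 7 were lower and 0 higher at an unadjusted limma p under 0.05. Over all probe sets these shares were 3.99% and 3.36%. None of the 20 passed the adjusted threshold. Most of the 20 fold or modify collagen chains in the endoplasmic reticulum. Creb3l1, Tmem38b, Mia2 and Mia3 have other roles and differed by 0.14, 0.10, -0.22 and -0.0078. Differences were negative for 17 of these biosynthesis genes, with a median of -0.63. The count was 4 without aged replicate 1, 3 without young replicate 1, and 2 when that separation was a covariate. P3h1 encodes a prolyl 3-hydroxylase. It was read at 6.65 (below the intron mark) and 7.59 in aged and at 8.59 and 8.67 in young arrays. Its difference was -1.51 ± 0.39 (SE). Plod2, the lysyl hydroxylase that prepares collagen for cross-linking, was read at 12.67 and 13.20 in aged and at 14.13 and 14.17 in young arrays, a difference of -1.21 ± 0.32. P3h2, a second prolyl 3-hydroxylase acting mainly on type IV collagen, differed by -1.11 ± 0.30, and Colgalt2, which adds galactose to hydroxylysine, by -0.98 ± 0.30. For these 4 genes limma gave adjusted p-values of 0.513 to 0.580. The other 3 were Plod1 (-0.97), the collagen chaperone gene Serpinh1 (-1.02) and P3h4 (-1.33), and the last lost that p in 9 of 13 alternatives. The prolyl 4-hydroxylase genes P4ha1, P4ha2 and P4hb, whose products stabilise the helix, differed by 0.11, -0.59 and -0.30.

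The genes that trim and cross-link secreted collagen were split. Of 11 measured maturation genes 6 were negative, the median was -0.092 and 1 was lower at an unadjusted p under 0.05. Over all probe sets 7.35% were at that p, so counts of 1 or 2 genes in this list and in the receptor and degradation lists are not read as results about them. The maturation gene was Adamts3, a protease that removes the amino-terminal propeptide, read at 6.43 and 5.60 in aged and at 7.41 and 7.48 in young arrays, so that the groups differed by -1.44 ± 0.37 (SE; limma adjusted p of 0.508). Both aged readings were below the intron mark, so the size is uncertain, and the gene is not among the brighter probe sets. Pcolce, which enhances removal of the carboxy-terminal propeptide, differed by -0.72 ± 0.29 and the cross-linking oxidase gene Loxl3 by -0.77 ± 0.41. Lox and Loxl1, oxidases of the same family, differed by -0.092 and 0.047.

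Among 10 measured receptor genes 1 was lower and 1 higher at an unadjusted p under 0.05, with a median of 0.20. Ddr2, a receptor tyrosine kinase for fibrillar collagen, was read at 14.92 and 15.17 in aged and at 13.72 and 14.33 in young arrays, so that the groups differed by 1.01 ± 0.34 (SE; limma adjusted p of 0.604). Itga2 encodes an integrin chain that binds collagen. It was read at 7.86 and 6.58 (below the intron mark) in aged and at 8.17 and 8.92 in young arrays. Its difference was -1.33 ± 0.52. Of 13 alternatives, 5 took the unadjusted p of Itga2 past 0.05 and 4 that of Ddr2. Itga11, another such chain, differed by 0.73 ± 0.34 and Itgb1, also on this list, by -0.64 ± 0.37. The degradation list holds proteases and also the metalloprotease inhibitor genes Timp1, Timp2 and Timp3, which differed by -0.22, 0.30 and 0.67. Among its 11 measured genes 1 was at an unadjusted p under 0.05, with a median of -0.20. It was Mmp3, the stromelysin protease, read at 10.33 and 10.87 in aged and at 12.67 and 12.74 in young arrays, so that the groups differed by -2.11 ± 0.32 (SE; limma adjusted p of 0.386). The collagenase genes Mmp8, Mmp13 and Mmp14 differed by -0.55, 0.092 and 0.049, but Mmp8 and Mmp13 were below the intron mark in every array. Ctsk, a collagen-degrading cathepsin, differed by -0.87 ± 0.37 and Mmp2, also on this list, by -0.40 ± 0.28.

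**Figure D4:**
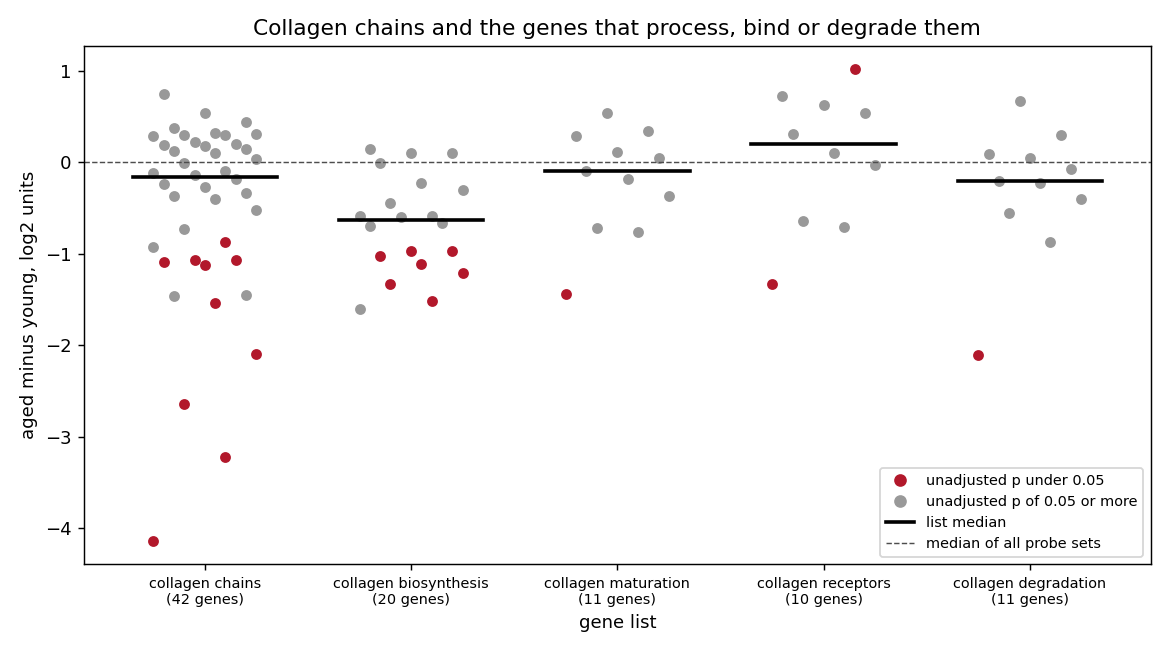
Difference between aged and young arrays, in log2 units, for each collagen chain gene and each measured gene of 4 collagen pathway lists; red marks an unadjusted p under 0.05, the bar is the list median and the dashed line the median of all probe sets. The biosynthesis list has the lowest median, -0.63, and the receptor list a positive one, 0.20.

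Markers of other cells were read beside the collagens, since each array holds RNA of many cells and fewer cells of a type cannot be told apart from less RNA per cell. Over all probe sets, 3.99% were lower and 3.36% higher at an unadjusted limma p under 0.05. Both aged arrays lay below both young arrays for 18.4% of probe sets and above them for 18.2%. Counts of 1 marker at that p, and counts of markers without overlap between groups, are not read as results about a cell type. Tendon cell markers had negative differences in 7 of 8 cases, with a mean list level of 8.94 and 9.07 in aged and of 9.72 and 10.09 in young arrays. Of these, Tnmd (-2.06), Kera (-2.85) and Cilp2 (-1.18) were at an unadjusted p under 0.05. Fmod (-0.31), Thbs4 (0.18) and Comp (-0.013) overlapped between the ages. Scx, the tendon transcription factor, was read at 5.21 and 6.04 in aged and at 6.88 and 5.88 in young arrays. Scx and Mkx (-0.22) were below the intron mark in both aged arrays and in young replicate 2. Fibro-adipogenic progenitor markers had a median difference of -0.13, with 8 of 10 negative and 0 of 10 at an unadjusted p under 0.05. Both aged arrays lay below both young arrays for 3 of the 10. Mean levels of this list were 14.36 and 14.22 in aged arrays and 14.14 and 14.81 in young ones. Dcn, which encodes the proteoglycan decorin, was read at 18.05 and 18.08 in aged and at 17.98 and 18.26 in young arrays. Satellite cell markers had a median of -0.15, with 7 of 11 negative and mean levels of 12.06 and 12.49 in aged arrays and of 13.03 and 12.05 in young ones. Of the 11, Myod1, a myogenic transcription factor, was the 1 at an unadjusted p under 0.05 (-1.16). It had aged arrays below young ones, as did Cdh15 (-0.87) and Cxcr4 (-1.02). The 4 positive differences were those of Sdc4 (0.69), Calcr (0.36), Pax7 (0.12) and Fgfr4 (0.10), and Fgfr4 had aged arrays above young ones. Pericyte and smooth muscle markers had a median of 0.20, with 3 of 9 negative and mean levels of 13.35 and 12.97 in aged arrays and of 13.50 and 12.50 in young ones. Schwann cell markers had a median of -0.43, with 3 of 4 negative and mean levels between 8.44 and 8.97. Endothelial markers were negative in 6 of 7 cases with a median of -1.74, but averaged 10.35 in young replicate 2 against 6.76 to 7.96 in the other arrays. Macrophage markers had positive differences in 7 of 7 cases, with mean levels of 7.26 and 6.12 in aged arrays and of 6.34 and 5.67 in young ones, and 4 of the 7 were below the intron mark in every array. Ptprc, the gene of the leukocyte antigen CD45, was above it in every array and was the 1 macrophage marker at an unadjusted p under 0.05. It was read at 9.66 and 10.57 in aged and at 8.75 and 7.89 in young arrays, a difference of 1.79 ± 0.46 (SE). The part of any of these cell types in the collagen differences was not tested.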

How the data were processed

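Per the submitters' processing notes, the authors made the deposited log2 probe set levels with RMA (background correction, normalization between arrays, probe summary) and the Transcriptome Analysis Console. Their versions, the genome build and the scan dates were not given in the sources used here. Labelled cDNA was prepared from total RNA, per the labels' protocols. The deposited log2 table held 28846 entries, of which 19572 had 1 gene symbol in the platform annotation and were tested; 1324 exon and 5222 intron controls served as quality marks. No low-level filter was used.

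A linear model with group as its only term was fitted with limma 3.58.1 (lmFit, then eBayes, two-sided, 2 residual degrees of freedom), run under R 4.3.3. Benjamini-Hochberg adjustment covered every tested probe set, at a threshold of 0.05; an unadjusted p under 0.05 gives counts set beside the same count over all probe sets. Errors of differences are SEs of this fit. The number of arrays limits the precision. The fit was tested on simulated data for this comparison (19572 probe sets): of 100 genes shifted by 4 log2 units 42 passed the adjusted threshold, and of 100 shifted by 2 units 0 passed.

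Members, classes, pathway and marker lists were chosen with earlier results of these data known. Of the genes in the lists, those without a probe set were not analysed here. Values per array are given for members at an unadjusted p under 0.05, for the 2 members of each class with the smallest p and for the largest difference against the class median. For up to 4 pathway genes per list, those with the smallest p, at least the difference is given. Others were named after their values were seen. Alternatives were a second quantile normalization, median centring, brighter probe sets, trended and robust priors, the replicate block, each array left out, averaged probe sets, every row of the table and, chosen after seeing the data, a covariate for the separation of exon from intron controls. Promoters are RefSeq's, build GRCm38.p6.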

Additional observations from a re-analysis of the deposited data

How the results depend on the processing

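No collagen gene passed the adjusted threshold under any alternative. Among the 39 genes named by the rule, 12 of 501 alternative values reversed sign; none passed the adjusted threshold in any, which shows no stability, since no probe set passed it with all arrays. Same-numbered samples shared only a number (the deviations of replicate 1 in both ages correlated at -0.05), and with the replicate block 12 collagen genes were lower, among them 9 of the 10; the block counted 0 FACIT, 1 multiplexin and 0 receptor genes. The cause of the shifts below was not tested, except that the probe sets brighter than the median hold only 25 collagen genes and none of the short-chain class. With those probe sets 16 differences were negative, the median was -0.73 over all, -1.45 for fibrillar, -0.73 for basement membrane, -0.71 for type VI and 0.082 for maturation genes, and 0 FACIT and 0 maturation genes were lower. With the separation covariate 4 collagen genes were lower (fibrillar 2, basement membrane 0, type VI 0; biosynthesis 2), and medians were -0.27 over all, -0.74 for fibrillar, -0.052 for FACIT, -0.31 for transmembrane, 0.058 for multiplexin, -0.33 for short-chain, -0.47 for biosynthesis and -0.29 for maturation genes; Col11a2 (-0.0095), Col4a4 (-0.12), Col9a3 (-0.24), Col13a1 (-0.31) and Col10a1 (-0.82) turned negative. A second quantile normalization gave -0.30 for short-chain and -0.0064 for maturation medians and 0 lower FACIT and receptor genes; median centring gave -0.28 for short-chain genes, 2 lower maturation genes and -0.0023 for Col18a1; the trended prior gave 0 FACIT and 2 maturation genes, and testing every row counted 0 FACIT and 0 receptor genes. With each array left out in turn, the lower collagen genes numbered 8 to 10, higher ones 0 to 1, and negative ones 25 to 28. Class medians then ran from -0.27 to -0.14 over all, -1.26 to -0.71 (fibrillar), -0.39 to -0.19 (basement membrane), -0.62 to -0.21 (type VI), 0.037 to 0.40 (FACIT), -0.11 to 0.28 (transmembrane), -1.25 to -0.17 (multiplexin) and -0.29 to -0.21 (short-chain), with 1 to 2 type VI, 0 to 1 FACIT and 0 to 1 multiplexin genes lower. Pathway medians ran from -0.85 to -0.49 (biosynthesis, 3 to 7 lower), -0.16 to 0.0011 (maturation, 1 to 2 lower), 0.048 to 0.55 (receptors, 0 to 2 lower) and -0.40 to -0.020 (degradation, 1 to 2 lower). In the same fits Col4a4 ran from -0.10 to 0.51, Col6a6 from -0.23 to 0.43, Col18a1 from -0.26 to 0.32, Col10a1 from -0.21 to 0.84 and Adamts14 from -0.066 to 1.13. Leaving out an array leaves 1 sample in its group, which is assumed to vary like the other group. Only 22 of the 42 collagen genes were above the intron control median in every array, and 13 were below it in every array. Readings below it limit what can be said of the genes other than these 22, among them Col26a1 and Col4a3.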
